A study of Mus musculus with 5 samples.

Results

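The Krüppel-like factors (KLFs) are transcription factors with a cluster of zinc fingers at the end of the protein, through which they bind GC-rich and CACCC sequences. The members described here are the 10 KLF genes Klf2, Klf3, Klf4, Klf5, Klf6, Klf7, Klf9, Klf10, Klf13 and Klf15, out of 18193 genes named by the array. They were taken as every probe set, the group of oligonucleotides that reads 1 transcript, whose platform annotation names 1 of these genes and no other. That gave 34 probe sets.

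Transcript levels were read on Affymetrix mouse arrays, 1 array per group. The cells were adipocytes differentiated from C3H10T1/2, a mouse mesenchymal cell line, and each culture was treated for 6 h. The groups are butein, sulfuretin and the solvent DMSO, and then resveratrol with a second solvent culture, DMSO1, which the labels name as its control. Butein is a chalcone and sulfuretin an aurone, a related skeleton in which the bridge between the aromatic rings is closed into a further ring, and resveratrol is a stilbene. Neither the doses nor the age of the adipocytes are given in the labels. With 1 array per group no treatment has a replicate, and the solvent arrays are the one pair of the same treatment. A difference between arrays cannot be told apart from one between cultures.

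In developing fat cells the family forms a relay. Klf4 acts early with Egr2 (Krox20) on Cebpb, Klf5 links the C/EBP factors to Pparg, Klf6 represses Dlk1, the preadipocyte factor that holds differentiation back, Klf9 acts later on Pparg, and Klf15 supports Pparg and the insulin-responsive glucose transporter gene Slc2a4. Klf13 has been described as an activator of PPARG in pig preadipocytes. Klf2 represses the Pparg promoter, Klf3 represses Cebpa together with CtBP corepressors, and Klf7 holds back differentiation in human preadipocytes. Klf10, the TGF-beta inducible early gene, was put in neither group because its role in fat cells is less settled. The roles come from work on differentiating cells, whereas the cells on these arrays were already differentiated. Of the 10 members, 6 were therefore placed with those that favour adipogenesis and 3 with those that oppose it.

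Klf4, Klf6 and Klf9 were among the members that stood higher with butein, so the 250 bases upstream of their annotated starts are shown (RefSeq, mouse build GRCm38.p6, written 5′ to 3′ on the strand of the gene). Klf4 lies on the minus strand at chr4:55532476-55532725, Klf6 on the plus strand at chr13:5861239-5861488 and Klf9 on the plus strand at chr19:23140976-23141225. Capitals mark matches to the motifs searched.
Klf4: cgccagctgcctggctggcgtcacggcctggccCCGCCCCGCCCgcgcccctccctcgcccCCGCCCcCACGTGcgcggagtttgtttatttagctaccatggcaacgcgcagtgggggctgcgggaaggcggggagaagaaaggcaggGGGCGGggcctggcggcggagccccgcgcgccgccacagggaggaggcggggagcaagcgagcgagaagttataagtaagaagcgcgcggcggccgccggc
Klf6: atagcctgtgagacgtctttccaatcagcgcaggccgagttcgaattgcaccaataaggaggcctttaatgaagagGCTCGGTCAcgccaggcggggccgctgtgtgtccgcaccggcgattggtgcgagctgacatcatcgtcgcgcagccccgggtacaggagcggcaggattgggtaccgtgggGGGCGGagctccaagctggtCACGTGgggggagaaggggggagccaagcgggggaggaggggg
Klf9: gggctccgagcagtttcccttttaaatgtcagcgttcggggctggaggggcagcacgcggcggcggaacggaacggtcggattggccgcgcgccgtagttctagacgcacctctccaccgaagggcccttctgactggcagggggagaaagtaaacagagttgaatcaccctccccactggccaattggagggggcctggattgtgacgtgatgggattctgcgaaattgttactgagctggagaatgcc

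The motifs, searched on both strands, were the GC box GGGCGG, the CACCC box CCACCC, the E-box CACGTG, the cyclic AMP response element TGACGTCA, the antioxidant response element TGACNNNGC, the heat shock element GAANNTTC, the TATA box TATAAA and the CArG box of serum response factor. The Klf4 window held 4 GC boxes and 1 E-box. The Klf6 window held 1 GC box, 1 E-box and 1 match to the antioxidant response element. In the Klf9 window none of these letters occurred. Over the same window of 32851 promoters, 32.7% held a GC box, 28.1% a CACCC box, 12.4% a TATA box, 10.2% the antioxidant response element, 6.69% the heat shock element, 6.02% an E-box, 1.55% the cyclic AMP response element and 1.47% a CArG box. Table entries were found for 8 members. Among the other 5 of these, GC boxes numbered 2 in Klf2, 6 in Klf3, 1 in Klf7, 3 in Klf13 and 1 in Klf15. CACCC boxes numbered 1 in Klf2, 3 in Klf3, 3 in Klf7 and 1 in Klf13. Klf15 held 2 E-boxes. The antioxidant response element had 1 match in Klf3 and 1 in Klf15, the Klf3 match overlapping a GC box, and in Klf13 a CACCC box overlapped a GC box. The GC content of the windows was 74% for Klf4, 64.8% for Klf6 and 59.6% for Klf9, against a median of 52.4% over all promoters. A match describes the letters of the window and not a bound site. Klf5 and Klf10 are named without a sequence.

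The values are deposited intensities on a linear scale, and differences are given on the log2 scale. The DMSO, butein and sulfuretin arrays have nearly the same sorted values, as have DMSO1 and resveratrol, but the DMSO1 and DMSO arrays do not (median gap of the sorted log2 values 0.52). Treatments were therefore compared with the solvent array of their own set. Because the scales differ, intensities of the DMSO1 set are not comparable with those of the DMSO set, and because probes differ in brightness, intensities are not compared between genes. A probe set was counted when its highest value reached an intensity of 8.39, the median of the mean log2 values over all probe sets. Of the 34 KLF probe sets 31 were counted, with at least 1 for every member. The cells carried adipocyte markers: of 8 measured, 7 were above that floor, with Fabp4 reading 8512 and Adipoq 6122 with butein and 9134 and 7202 with DMSO, and Lep was below it. Of the markers of other cells, Ptprc and Adgre1 (leukocytes and macrophages), Pecam1, Cdh5 and Tek (endothelium) and Myod1 and Myog (muscle) were below it. Other members of the same lists were above it on at least 1 array, namely Csf1r and Cd68 (macrophage), Kdr (endothelium), Ckm and Acta1 (muscle) and Sox9, Col2a1 and Sp7 (cartilage and bone). Of these Acta1 read 45.3 with butein and 71.1 with DMSO, and Sox9 read 68.7 with butein and 92.3 with DMSO. Fibroblast markers were counted too, Col3a1 reading 3599 with butein and 4253 with DMSO.

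**Figure D1:**
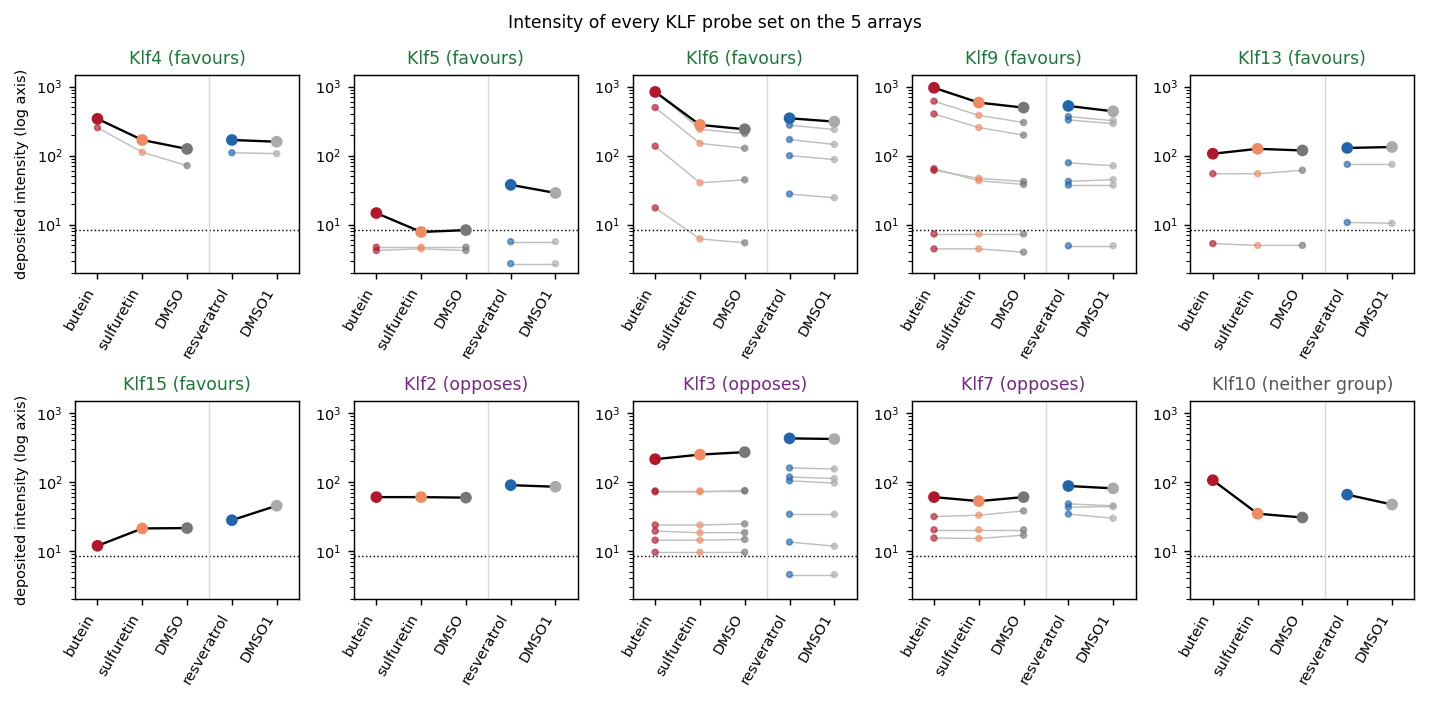
Deposited intensity (log axis) of every KLF probe set on the 5 arrays, 1 panel per gene. Large points joined in black are the brightest probe set of the gene, small points its other probe sets, the dotted line is the floor of 8.39 and the vertical line separates the 2 array sets. Klf4, Klf6, Klf9 and Klf10 stand highest with butein within their set, and Klf15 stands lowest with butein and is lower with resveratrol than with DMSO1.

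Butein gave the widest differences in the family. Against DMSO, 10 of the 31 counted KLF probe sets reached 2-fold upward and 0 downward. Among all 22340 counted probe sets, 1.9% reached it upward and 0.363% downward. At 1.5-fold there were 13 upward and 1 downward, against 4.96% and 2.49% of all. The 10 belong to 4 genes, Klf4, Klf6, Klf9 and Klf10. The median over the 31 was 0.078, against 0 over all counted probe sets. Of the 31, 17 were higher, 9 lower and 5 exactly equal (33.4% of all). The difference was thus carried by some members and not by most. The closest to the criterion lay within 1 gene, Klf9, at 2.03-fold inside and 1.94-fold outside.

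Klf6 (NCBI gene 23849), the repressor of Dlk1, had the largest difference. Its brightest probe set, 1433508_at, read 839 with butein and 279 with sulfuretin, against 241 with DMSO, and 348 with resveratrol, against 312 with DMSO1. The butein array stood apart upward, and the sulfuretin and resveratrol arrays lay within 1.16-fold of their own solvent array. The probe set 1427742_a_at read 871 with butein, 240 with sulfuretin and 209 with DMSO, then 276 with resveratrol and 239 with DMSO1. Likewise 1447448_s_at read 499 with butein, 151 with sulfuretin and 128 with DMSO, then 171 with resveratrol and 145 with DMSO1. All 5 Klf6 probe sets gave the same picture for butein. The dimmer 1418280_at read 137 with butein, 40.4 with sulfuretin and 44.6 with DMSO, then 99.99 with resveratrol and 87.8 with DMSO1. The dimmest, 1459718_x_at, read 17.5 with butein, against 6.21 with sulfuretin and 5.46 with DMSO, both below the floor, then 27.8 with resveratrol and 24.5 with DMSO1. Over the 5, the butein difference ran between log2 1.62 and 2.06, that is 3.08-fold to 4.17-fold.

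Klf4 (NCBI gene 16600), which acts on Cebpb at the start of adipogenesis, was higher with butein on both of its probe sets. On 1417394_at it read 342 with butein and 169 with sulfuretin, against 125 with DMSO, and 169 with resveratrol, against 159 with DMSO1. On 1417395_at it read 254 with butein and 112 with sulfuretin, against 71.7 with DMSO, and 110 with resveratrol, against 107 with DMSO1. In both, butein stood highest, sulfuretin between butein and DMSO, and resveratrol close to DMSO1. The second probe set was 3.55-fold higher with butein and 1.56-fold higher with sulfuretin, the widest difference of any KLF probe set with sulfuretin.

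Klf10 (NCBI gene 21847), a fast-responding gene first known as a target of TGF-beta, was read by 1 probe set, 1416029_at. It gave 106 with butein and 34.7 with sulfuretin, against 30.5 with DMSO, and 65.4 with resveratrol, against 47.1 with DMSO1. It was 3.47-fold higher with butein, 1.14-fold with sulfuretin and 1.39-fold with resveratrol. That resveratrol difference was the widest upward one among the KLF probe sets and ranked 126 from the highest of 22340.

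Klf9 (NCBI gene 16601), an activator of Pparg that also responds to glucocorticoids, lay around the criterion with butein. The brightest probe set, 1456341_a_at, read 964 with butein and 588 with sulfuretin, against 497 with DMSO, and 526 with resveratrol, against 439 with DMSO1. The next, 1428289_at, read 616 with butein, 384 with sulfuretin and 303 with DMSO, then 329 with resveratrol and 292 with DMSO1. On 1428288_at the values were 402 with butein, 256 with sulfuretin and 198 with DMSO, then 369 with resveratrol and 322 with DMSO1. These 3 bright probe sets ordered the arrays alike, with butein highest, sulfuretin next and DMSO lowest, and their butein differences were 1.94-fold, 2.04-fold and 2.03-fold. Of the dimmer ones, 1436763_a_at was 1.69-fold and 1422264_s_at 1.45-fold higher with butein, while 1436952_at read 7.32 on all arrays of the DMSO set, below the floor, and 37.4 on both of the DMSO1 set. The uncounted 1452723_at read between 3.99 and 4.94 on the 5 arrays.

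Klf5 (NCBI gene 12224), the link between the C/EBP factors and Pparg, was read close to the floor in the DMSO set. Its 1 counted probe set, 1451021_a_at, read 14.7 with butein, against 7.83 with sulfuretin and 8.33 with DMSO, both under the floor, and 37.7 with resveratrol, against 28.8 with DMSO1. It was 1.77-fold higher with butein and 1.31-fold higher with resveratrol, from levels so near the floor in the DMSO set that the butein size is uncertain. The other Klf5 probe sets were not counted, 1451739_at reading 4.71 on the 3 arrays of the DMSO set and 5.66 on the other arrays, and 1430255_at reading between 2.72 and 4.47.

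Klf15 (NCBI gene 66277), which supports Pparg and Slc2a4 in mature fat cells, was the one favouring member well below its control. Its single probe set, 1448181_at, read 11.9 with butein and 21.2 with sulfuretin, against 21.4 with DMSO, and 27.9 with resveratrol, against 45.3 with DMSO1. It was 1.81-fold lower with butein (log2 -0.85), 1.01-fold lower with sulfuretin and 1.62-fold lower with resveratrol (log2 -0.70). Neither reached 2-fold against its own solvent array, and among 22340 probe sets they ranked 155 from the lowest with butein and 38 from the lowest with resveratrol. The butein value lay near the floor. It was past 2-fold downward in 3 of 10 alternatives, each of them with another form of the solvent control.

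Klf13 (NCBI gene 50794) differed little. Its probe set 1436316_at read 107 with butein and 126 with sulfuretin, against 119 with DMSO, and 129 with resveratrol, against 133 with DMSO1. On 1432543_a_at it read 54.6 with butein and with sulfuretin, against 61.5 with DMSO, and 74.8 on both arrays of the other set. The dim 1456030_at lay below the floor in the DMSO set, at 5.31 or less, and read 10.8 with resveratrol and 10.5 with DMSO1.

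**Figure D2:**
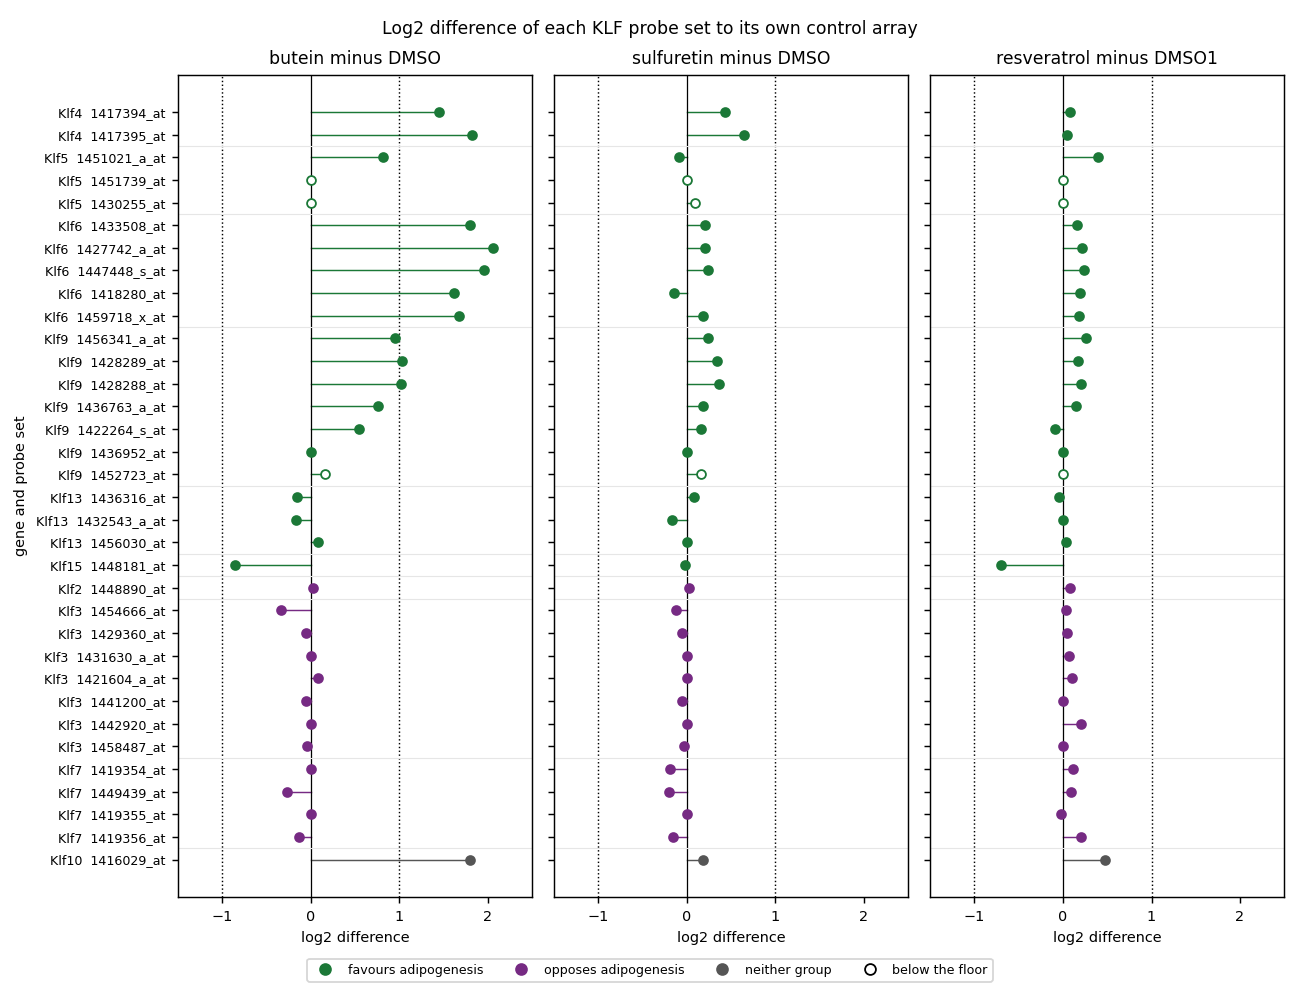
Log2 difference of each of the 34 KLF probe sets, with butein and sulfuretin against DMSO and resveratrol against DMSO1. Filled points are counted probe sets, open points lie below the floor and dotted lines mark 2-fold. The probe sets of Klf4, Klf6 and Klf10 and 2 of Klf9 pass the upper line with butein, and no KLF probe set passes either line with sulfuretin or resveratrol.

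The 3 members placed with those that oppose adipogenesis, a group without Klf10, stayed close to their solvent arrays. Klf2 (NCBI gene 16598), the repressor of the Pparg promoter, read 60.3 with butein and with sulfuretin, against 59.3 with DMSO, and 89.9 with resveratrol, against 85.2 with DMSO1, on its probe set 1448890_at. The widest of these differences was 1.05-fold.

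Klf3 (NCBI gene 16599), the partner of CtBP, has 7 probe sets. The brightest, 1454666_at, read 214 with butein and 249 with sulfuretin, against 271 with DMSO, and 428 with resveratrol, against 420 with DMSO1, which made it 1.27-fold lower with butein. The other 6 differed by at most log2 0.078 with butein. On 1429360_at the log2 differences were -0.058 with butein, -0.058 with sulfuretin and 0.048 with resveratrol. On 1431630_a_at they were 0, 0 and 0.073 in the same order, on 1421604_a_at 0.078, 0 and 0.11, on 1441200_at -0.056, -0.056 and 0, on 1442920_at 0, 0 and 0.20, and on 1458487_at -0.036, -0.036 and 0. With resveratrol 5 of the 7 were slightly higher and 2 equal.

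Klf7 (NCBI gene 93691) has 4 probe sets, none of them higher with butein or sulfuretin. The brightest, 1419354_at, read 60.3 with butein and 52.7 with sulfuretin, against 60.3 with DMSO, and 87.4 with resveratrol, against 80.8 with DMSO1. On 1449439_at it read 31.5 with butein and 33.0 with sulfuretin, against 38.1 with DMSO, and 48.1 with resveratrol, against 45.1 with DMSO1. The log2 differences of 1419356_at were -0.14 with butein, -0.16 with sulfuretin and 0.20 with resveratrol, and those of 1419355_at were 0, 0 and -0.025.

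The 2 role groups were then set side by side with 1 value per gene, that of its brightest probe set. The groups had been chosen with earlier results of these data known. With butein, 4 of the 6 favouring members were higher and 2, Klf13 and Klf15, lower, with a median log2 difference of 0.89. Of the 3 opposing members 1 was higher, 1 lower and 1 equal, with a median of 0, which is also the median over all 12439 counted genes. The medians were thus 0.89 apart. The favouring median lies between the values of Klf9 and of Klf5, which was read close to the floor. Over 12 alternatives of control, normalization, floor, probe set choice and role group it ran between 0.39 and 1.03. The groups overlapped, since the favouring members ran between -0.85 and 1.80 and the opposing ones between -0.34 and 0.025. With Klf10 counted as opposing, the opposing median was 0.012 and the gap 0.88, but the opposing values then reached 1.80, that of Klf10.

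With sulfuretin the favouring median was 0.14 and the opposing median -0.12, a gap of 0.26. The favouring members ran between -0.09 and 0.43 and the opposing ones between -0.19 and 0.025. With resveratrol the favouring median was 0.12 and the opposing one 0.077, a gap of 0.046, and all 3 opposing members were slightly higher. The resveratrol gap took the other sign in 4 of 12 alternatives, among them the other DMSO array as control (-0.19). The direction with butein and sulfuretin was the same under each of the 12 alternatives computed, which reuse the same treatment arrays. Leaving out the floor could not change it. Centring each array takes the same constant from both groups, so it left the gaps identical. Between the solvent arrays, DMSO1 minus DMSO, the same gap was -0.17 as deposited and 0.020 after joint quantile normalization. With 6 genes against 3, grouped with earlier results known, the gaps describe these genes on these arrays and are no test of a split by role.

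**Figure D3:**
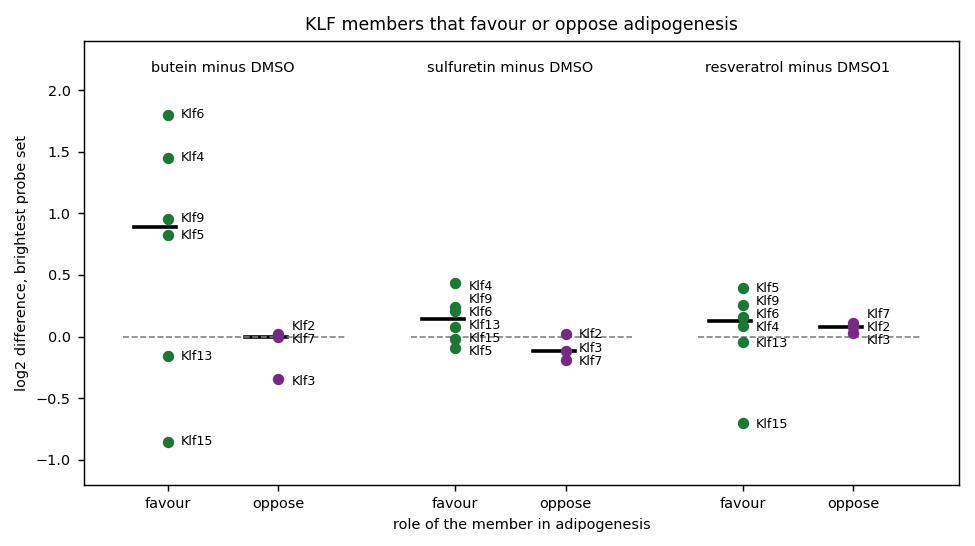
Log2 difference of the brightest probe set of each KLF member that favours (green) or opposes (purple) adipogenesis, in the 3 comparisons. Black bars are group medians and the dashed line is the median of all counted genes. The groups were chosen with earlier results of these data known, and Klf10, in neither group, is not shown. With butein the favouring median is 0.89 and the opposing median 0, while Klf15 lies below every opposing member.

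No KLF probe set was 2-fold higher or lower with sulfuretin, where 0.192% of all counted probe sets were 2-fold higher and 0.0492% lower. At 1.5-fold there was 1 upward, the Klf4 probe set above, and 0 downward, against 1.29% and 0.524% of all. With resveratrol there was likewise none at 2-fold, where 0.0627% of all were higher and 0.0537% lower, and at 1.5-fold there were 0 upward (0.331% of all) and 1 downward, Klf15 (0.327% of all). With resveratrol 23 of 31 counted KLF probe sets were higher, 4 lower and 4 equal (35.3% of all). Their median was 0.093, against 0 over all counted probe sets. Several of the 31 read the same gene. Of all 12439 counted genes 4090 were higher and 4226 lower. With each array centred on its median the upward differences were smaller, at 0.022 for Klf2 and -0.025 for Klf3. With sulfuretin 14 of the 31 KLF probe sets were higher, 11 lower and 6 equal (35.6% of all), with a median of 0.

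Butein and sulfuretin, which lie in 1 array set, were also compared directly, although their doses are not in the labels. Sulfuretin stood at least 2-fold below butein on 8 of 31 KLF probe sets and above it on 0. Over all counted probe sets 0.949% were lower and 0.0895% higher. The 8 were the 5 of Klf6 (2.81-fold to 3.62-fold lower), the 2 of Klf4 (2.03-fold and 2.27-fold lower) and that of Klf10 (3.06-fold lower). Klf9 stood 1.64-fold lower with sulfuretin than with butein on its brightest probe set, and Klf15 1.79-fold higher. The low end of the Klf6 range comes from 1459718_x_at, which lay below the floor with sulfuretin, so that size is uncertain. Klf5 read 14.7 with butein and lay below the floor with sulfuretin. The aurone and the chalcone gave exactly equal values for Klf2, as for 9 of the 31 KLF probe sets and 36.1% of all counted probe sets. These comparisons with butein and with DMSO share arrays, and the resveratrol values come from another set.

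The only pair of arrays with the same treatment is that of the solvents. As deposited, the median over all counted probe sets was 0.65 higher with DMSO1 than with DMSO and the KLF median 0.58 higher. After quantile normalization of all 5 arrays together, 3 of the 31 KLF probe sets reached 2-fold upward with DMSO1 (7.53% of all) and 1 downward (3.49% of all). They were 1421604_a_at (log2 1.68) and 1458487_at (log2 -2.09) of Klf3, 1436952_at of Klf9 (1.58) and 1459718_x_at of Klf6 (1.49). The last 3 of these lay below the floor on a solvent array, and 1421604_a_at read 96.4 with DMSO1 and 18.4 with DMSO. On that scale the brightest Klf6 probe set was 1.75 higher with butein than with DMSO and -0.039 with DMSO1, Klf10 was 1.64 and -0.18, and Klf4 was 1.42 and -0.13. Klf9 was 0.92 higher with butein and differed by -0.55 between the solvents, and Klf5 was 0.86 higher with butein and 0.94 higher with DMSO1. For Klf5 the difference between solvent cultures was thus as wide as that with butein. When limma took the solvent arrays as replicates, each compound still had 1 array, so the fit could not decide which members differ. No KLF probe set passed after adjustment with any compound, and almost none of all counted probe sets did. On the deposited values 2 KLF probe sets, both of Klf6, and after joint normalization 8, from Klf4, Klf6, Klf9 and Klf10, had an unadjusted p under 0.05 with butein, all of them higher. Over all 22340 probe sets such a p was reached by 94 higher and 103 lower as deposited, and by 310 higher and 64 lower after joint normalization. With sulfuretin or resveratrol no KLF probe set reached such a p, where few of all 22340 did, so this is no result about the family.

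**Figure D4:**
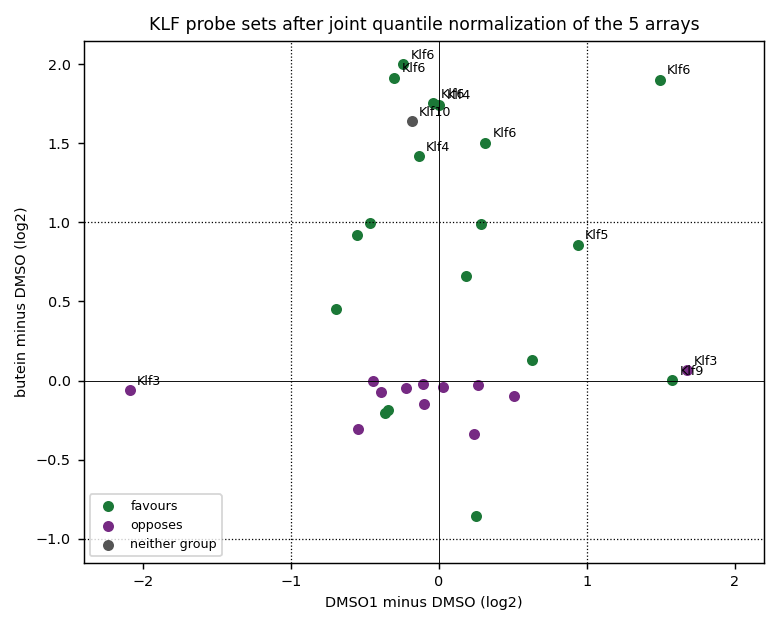
Log2 differences of the 31 counted KLF probe sets after joint quantile normalization, butein minus DMSO (vertical) against DMSO1 minus DMSO (horizontal), coloured by role. Dotted lines mark 2-fold. The probe sets of Klf4 and Klf10 and 4 of 5 of Klf6 lie high on the vertical axis and no more than 0.31 from zero on the horizontal one, and Klf5 lies at 0.94 and 0.86.

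The genes on which KLFs act or with which they work went different ways with butein. Of 14 counted partners and targets (of 16 listed), 5 were higher and 8 lower, with Egr2 and Cebpb past 2-fold upward, 0 downward and with a median of -0.12. Of all 12439 counted genes 4107 were higher and 4610 lower, with 252 past 2-fold upward and 37 downward. Egr2, the early partner of Klf4, read 25.6 with butein, against 7.32 with sulfuretin and 7.32 with DMSO, both under the floor, and 9.81 with resveratrol, against 8.36 with DMSO1. Cebpb, the gene that Klf4 and Egr2 activate, read 1937 with butein and 1062 with sulfuretin, against 648 with DMSO, and 991 with resveratrol, against 974 with DMSO1. It was 2.99-fold higher with butein and 1.64-fold higher with sulfuretin. Klf4 and Cebpb thus shared an order of arrays within the DMSO set, butein above sulfuretin above DMSO, and with resveratrol both lay within 1.06-fold of DMSO1. This order was not particular to them. It also held for the brightest probe sets of Klf6, Klf9, Klf10, Klf16, Cebpd and Skil, of which Cebpd was 1.06-fold and Skil 1.03-fold higher with resveratrol.

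The other partners and targets did not reach 2-fold. Cebpd, induced early like Cebpb, read 208 with butein and 149 with sulfuretin, against 139 with DMSO, and 153 with resveratrol, against 144 with DMSO1, and so was higher with butein, whereas Cebpa, Pparg and Slc2a4 were lower with it. Cebpa, which Klf3 represses, read 114 with butein and 160 with sulfuretin, against 158 with DMSO, and 332 with resveratrol, against 378 with DMSO1. Pparg read 416 with butein and 355 with sulfuretin, against 462 with DMSO, and 481 with resveratrol, against 602 with DMSO1. Slc2a4, a target of Klf15, read 75.3 with butein and 73.1 with sulfuretin, against 93.0 with DMSO, and 107 with resveratrol, against 149 with DMSO1. It was lower with all 3 compounds, with log2 differences of -0.30, -0.35 and -0.48, while Klf15 was lower with butein and resveratrol and 1.01-fold lower with sulfuretin. Dlk1, the target of Klf6, was below the floor on all 5 arrays, reading 5.65 throughout the DMSO set and 4.54 throughout the other, so a further decrease could not be read. With sulfuretin 6 of the 14 were higher and 7 lower, and with resveratrol 5 higher and 9 lower, 0 of them past 2-fold in either. Few of all 12439 counted genes were, 24 higher and 6 lower with sulfuretin and 10 and 8 with resveratrol. Adipocyte markers were lower as well: with butein 6 of 7 counted were lower and 1 equal, with a median of -0.23. Of all 12439 counted genes 4107 were higher and 4610 lower with butein. The summed marker intensity was 21095 with butein, against 24039 with DMSO. With sulfuretin 4 were higher and 3 lower and the sum was 23927. With resveratrol all 7 were lower (4226 of all 12439 counted genes), with a median of -0.11 and a sum of 23349, against 24909 with DMSO1. Of 4 counted fibroblast markers 3 were lower with butein, with a sum of 4573, against 5352 with DMSO. Whether fewer adipocytes or less RNA per cell lay behind this cannot be told apart on bulk RNA, and its part in the KLF differences was not tested.

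**Figure D5:**
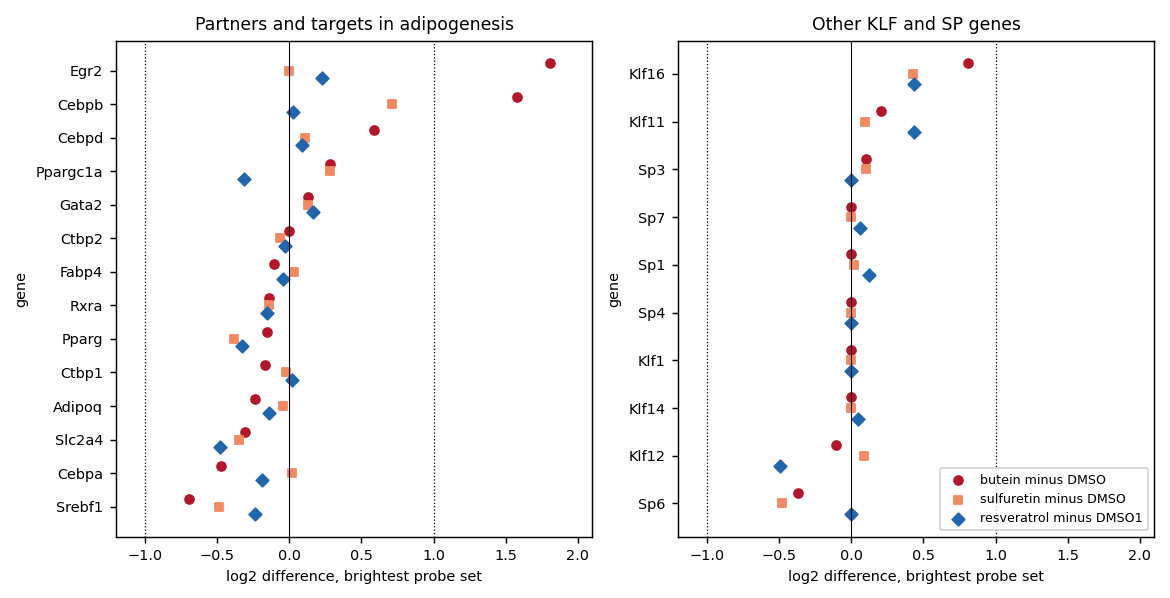
Log2 differences of the counted KLF partners and targets (left) and of the other KLF and SP genes (right), brightest probe set, for butein, sulfuretin and resveratrol against their own solvent arrays. Dotted lines mark 2-fold. Egr2 and Cebpb pass it with butein. Of the 10 counted KLF and SP relatives 0 pass it with any compound, and few of all 12439 counted genes do.

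With butein no other relative differed as widely as Klf4, Klf6 or Klf10. With sulfuretin and resveratrol, differences of relatives and members were of similar size. Of 16 other KLF and SP genes 10 were counted, and 0 of them were 2-fold higher or lower with any compound. Of all 12439 counted genes, 252 were 2-fold higher and 37 lower with butein, 24 and 6 with sulfuretin, and 10 and 8 with resveratrol. With shares this small, 0 of 10 is no result about these genes. With butein 3 were higher and 2 lower and the median was 0, with sulfuretin 5 and 1, and with resveratrol 5 and 1. With butein Klf16 was the widest (log2 0.81), with sulfuretin Sp6 (log2 -0.48) and with resveratrol Klf12 (log2 -0.49). On brightest probe sets, the widest member was Klf4 with sulfuretin (log2 0.43) and Klf15 with resveratrol (log2 -0.70). Klf16 read 48.9 with butein and 37.6 with sulfuretin, against 27.9 with DMSO, and 62.4 with resveratrol, against 46.1 with DMSO1. Sp1, a general activator at GC boxes, read 253 with butein and 257 with sulfuretin, against 253 with DMSO, and 368 with resveratrol, against 337 with DMSO1.

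Among 15 genes that act on immediate early KLF genes or report on the signals that do, 7 were higher and 5 lower with butein, 1 of them past 2-fold. That was Skil, a TGF-beta induced repressor of Smad signalling, which read 51.6 with butein and 32.0 with sulfuretin, against 19.3 with DMSO, and 47.4 with resveratrol, against 46.1 with DMSO1. The glucocorticoid-responsive genes Fkbp5, Per1 and Tsc22d3 had log2 differences of 0.37, 0.46 and 0 with butein. With sulfuretin 4 of the 15 were higher and 8 lower, with resveratrol 6 and 4, and 0 passed 2-fold in either. Of all 12439 counted genes 252 were 2-fold higher and 37 lower with butein, 24 and 6 with sulfuretin, and 10 and 8 with resveratrol.

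The genes whose pattern over the 3 comparisons lay nearest to Klf6, Klf10 and Klf4, whose brightest probe sets were past 2-fold with butein, were found among 11781 counted genes by Euclidean distance of the 3 log2 differences. Nearest to Klf6 were Zbtb21 (distance 0.093), Chka (0.17) and Egr2 (0.22). Klf10 had Etv5 (0.12), Tnfrsf12a (0.18) and Chka (0.20) nearest, and Klf4 had Ugdh (0.07), Rnf149 (0.082) and Zfp52 (0.13). Chka, a choline kinase gene, read 169 with butein and 60.02 with sulfuretin, against 48.8 with DMSO, and 73.8 with resveratrol, against 59.4 with DMSO1. Ugdh, which encodes UDP-glucose dehydrogenase, read 1048 with butein and 522 with sulfuretin, against 390 with DMSO, and 666 with resveratrol, against 602 with DMSO1, and so shared with Klf4 the intermediate position of sulfuretin. Etv5 and Egr2 lay below the floor with sulfuretin and DMSO, so their distances are uncertain. All distances rest on 3 values per gene and 5 arrays.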

How the data were processed

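The deposited table gives 1 intensity per probe set and array for 45037 probe sets on 5 arrays. The authors used RMA, per the submitters' processing notes, with settings not given here, and the deposited intensities are linear, from 1.4 to 9340. Log2 was taken without a pseudocount. The platform annotation names 1 gene for 34945 of them, with symbols updated by gene ID through RefSeq (GRCm38.p6, 34741 matched), several genes for 932 and none for 9160; the last 2 kinds were left out.

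Probe sets whose highest log2 value reached the median of all mean log2 values (intensity 8.39) were counted, 22340 in all. A gene's value is that of its brightest probe set. The call rule was a log2 difference of at least 1, and values within 1e-06 were called equal. The precision is limited by 1 array per group.

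The members, role groups and gene lists were chosen with earlier results of these data known. Of each list, up to 4 genes past 2-fold were to be named, with Cebpb, Cebpd, Cebpa, Pparg, Egr2, Dlk1 and Slc2a4 always, and the 3 nearest genes for up to 3 members past 2-fold. Ugdh and Chka values, Klf16, Sp6, Klf12, Sp1, the markers of other cells, Fkbp5, Per1 and Tsc22d3 were added after their values had been seen. Alternatives were other controls, joint quantile normalization, centring, other floors and criteria, other probe set choices, other role groups, and limma on the solvent arrays as replicates, with 1 residual degree of freedom. The scripts were tested on simulated data. Versions were limma 3.58.1 in R 4.3.3, and pandas 2.3.3, numpy 2.4.6, scipy 1.17.1 and matplotlib 3.10.9 in Python 3.11.15.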

Additional observations from a re-analysis of the deposited data

How the results depend on the processing

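With butein, the count of KLF probe sets past the criterion (10) lay between 7 and 14 under 10 alternatives. In 6 of these none was lower. Against the other DMSO array it was 9 upward and 5 downward (1.29% of all probe sets lay upward and 28.7% downward). With the mean of both it was 9 and 3 (1.04% of all higher, 5.58% lower). It was 11 and 3 with the other array after joint normalization (5.89% of all higher, 8.15% lower). At 1.5-fold it was 13 and 1. By limma with both solvent arrays as replicates no KLF probe set passed, as deposited or after joint normalization. Almost none of all counted probe sets did either, so this is no result about the family. With sulfuretin it was 0, and 1 at 1.5-fold, 10 with the other DMSO array as control (1 higher and 9 lower, where 27.4% of all probe sets were lower), 2 with the mean of both DMSO arrays (both lower, as were 4.75% of all) and 5 with that other array after joint normalization (1 higher and 4 lower, against 4.15% and 7.59% of all). With resveratrol it was 0, and under these same settings 1 (lower), 12 (11 higher, where 28.4% of all were), 4 (all higher, 4.42% of all) and 5 (4 higher and 1 lower, against 7.63% and 4.3% of all), and 1 (lower, 0.269% of all) with joint normalization and the mean of both DMSO arrays, an alternative added after seeing the data. The scales of the solvent arrays differ, and the cause of these counts was not tested further. Klf5 depends on the control: with the other DMSO array its butein difference was -0.97 as deposited and -0.079 after joint normalization. Klf15 with resveratrol was 0.38 with the other DMSO array as deposited, where the scales differ, and -0.50 after joint normalization. With butein Klf15 passed 2-fold downward in 3 of 10 alternatives, all with another solvent control. It was -1.93 with the other DMSO array, -1.39 with the mean of both and -1.11 with the other array after joint normalization. With the mean of both after joint normalization it was -0.98. Klf4, Klf6 and Klf10 stayed past 2-fold with butein under each of 10 alternatives. The other floors and dropping the _a_at, _s_at and _x_at probe sets left these values identical. So did the mean of all probe sets for Klf10, which has 1. Every alternative used the same butein array. Of the 366 other values computed, 348 moved by less than 1.5-fold and 18 by more, and some of them could not move. No paired analysis was possible because each group has 1 array.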
